A study of Mus musculus with 2 samples.

Results

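ATF4 and 9 further basic leucine zipper (bZIP) genes that pair with it or act beside it in stress responses were described in hair follicle stem cells, the bulge cells from which each new hair is grown. The set was given as a list of gene symbols (Atf4, Atf5, Atf6, Atf2, Cebpa, Cebpb, Cebpd, Cebpg, Ddit3 and Xbp1), and all 10 were found, each on 1 of 42392 gene IDs of the deposited expression table. The study placed 1 sample in anagen II-III, the early growth phase of the follicle, and 1 in telogen, its resting phase. Both came from the skin of female mice of genotype K15-CrePGR; Shh+/-, with a Cre and progesterone receptor fusion that the keratin 15 promoter drives and heterozygous for loss of Shh, and both had received RU486, the ligand of that Cre, for 8 days. Both are titled controls, and the labels give neither the age nor the number of animals. Cells were sorted as integrin alpha 6 high and CD34 positive, with SCA1-positive and non-epidermal cells removed. The anagen library is the one analysed here. It has no replicate, so no value below carries an error and no difference was tested. Values are TPM, a measure of transcript abundance that divides by gene length, and can be compared between genes of 1 library. The read depth behind them is unknown. RNA levels averaged over the sorted cells cannot tell more cells of a type from more RNA per cell, and they measure neither protein nor its activity.

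bZIP factors bind DNA as dimers, with a basic region that contacts the DNA and a leucine zipper that joins the partners, so the mix of available partners decides which dimers can form. In the integrated stress response, kinases that sense amino acid shortage, misfolded protein in the endoplasmic reticulum (ER), viral RNA or heme lack phosphorylate the translation factor eIF2, which lowers translation in general but favours that of Atf4 mRNA through upstream reading frames. ATF4 then binds composite elements with C/EBP partners, C/EBP-gamma among them, at genes of amino acid uptake and synthesis. In the skin, C/EBP-alpha and C/EBP-beta act in keratinocyte differentiation. ATF6 and XBP1 belong to the other arms of the ER stress response, where ATF6 is freed by cleavage in the Golgi and Xbp1 mRNA is spliced after IRE1 cuts it. Both steps, like the translation of Atf4, lie beyond what a level per gene can show.

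RefSeq promoter windows were at hand for 8 of the 10 genes, in 9 windows because Atf5 has a pair of starts. Atf6 and Cebpd have no entry there. The 250 bases before the start of the window's transcript are shown from RefSeq on build GRCm38.p6, 5′ to 3′, for the 3 members with the highest levels, Atf4, Cebpb and Cebpa, and for Atf2, the member with the lowest level among those with an entry. For Atf2 that start lies within the gene model, and the 38 bases inside the model are left out, which leaves 212. Capitals mark the CCAAT box, the letters TGACG, which are one side of a cyclic AMP response element, and the TATA box letters TATAAA, each on either strand.
Atf4 promoter, chr15:80254934-80255183, + strand: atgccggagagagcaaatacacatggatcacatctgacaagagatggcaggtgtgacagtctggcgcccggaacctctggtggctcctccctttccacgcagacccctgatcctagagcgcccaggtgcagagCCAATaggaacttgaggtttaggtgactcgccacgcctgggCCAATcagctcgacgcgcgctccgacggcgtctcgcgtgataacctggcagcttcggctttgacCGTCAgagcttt
Cebpb promoter, chr2:167688665-167688914, + strand: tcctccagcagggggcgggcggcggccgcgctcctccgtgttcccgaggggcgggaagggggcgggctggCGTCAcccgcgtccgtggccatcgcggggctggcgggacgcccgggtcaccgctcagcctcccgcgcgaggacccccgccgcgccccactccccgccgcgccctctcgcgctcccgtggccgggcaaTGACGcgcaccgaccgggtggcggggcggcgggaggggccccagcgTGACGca
Cebpa promoter, chr7:35119043-35119292, + strand: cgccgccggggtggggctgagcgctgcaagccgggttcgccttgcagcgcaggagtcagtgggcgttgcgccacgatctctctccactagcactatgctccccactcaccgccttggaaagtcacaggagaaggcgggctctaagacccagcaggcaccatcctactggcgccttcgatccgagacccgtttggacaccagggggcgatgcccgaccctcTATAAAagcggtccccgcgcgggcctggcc
Atf2 promoter, chr2:73892678-73892889, - strand: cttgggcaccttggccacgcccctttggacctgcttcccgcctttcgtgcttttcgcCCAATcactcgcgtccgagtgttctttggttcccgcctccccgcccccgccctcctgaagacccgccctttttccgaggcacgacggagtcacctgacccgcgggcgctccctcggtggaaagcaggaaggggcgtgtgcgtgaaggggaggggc
The Atf4 window holds CCAAT at 117 and 76 bases before the start and a reverse TGACG at 12 bases. The Cebpb window holds TGACG at 180, 53 and 7 bases before the start, the first of them reversed, and has a GC content of 81.6%, above that of 99.3% of all 32851 windows, whose median is 52.4%. The Cebpa window has TATAAA at 30 bases before the start and neither CCAAT nor TGACG, and the Atf2 window has CCAAT at 193 bases before its transcript's start. CCAAT was found in 5 of the 9 windows (Atf4, Atf2, Cebpg, Ddit3 and the downstream of the Atf5 starts), against 33.8% of all windows of this length. TGACG was found in 2 of the 9, those of Atf4 and Cebpb, against 17.8% of all windows, and TATAAA in 1, that of Cebpa, against 12.4%. The looser C/EBP pattern TTNNGNAA was found in 2 of the 9, those of Xbp1 and the downstream Atf5 start, against 36.8%. No member window held the full element TGACGTCA (1.55% of all windows), the ATF4 and C/EBP composite TGATGNAA (3.45%) or the XBP1 and ATF6 element TGACGTGG (0.563%). Both strands were searched, and TGACG lies within TGACGTCA and TGACGTGG. These matches describe the letters of the windows and say nothing of what binds there.

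The 10 genes split into 3 high and 7 lower ones. Atf4 stood at 127 TPM, Cebpb at 114 TPM and Cebpa at 97.7 TPM. The next member, Xbp1, was at 33.9 TPM, so Cebpa was 2.88-fold above it. The 3 highest genes together held 69.0% of the 490.4 TPM summed over the 10. The remaining genes formed a run of close values, with Atf5 at 27.6 TPM, Cebpg at 23.9 TPM, Cebpd at 20.4 TPM, Ddit3 at 20.1 TPM and Atf2 at 19.8 TPM. Cebpd, Ddit3 and Atf2 lay within 3.33% of one another, and without replicates their order has no meaning. Atf6 stood apart as the lowest at 6.22 TPM, 3.18-fold below Atf2 and 20.4-fold below Atf4.

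**Figure D1:**
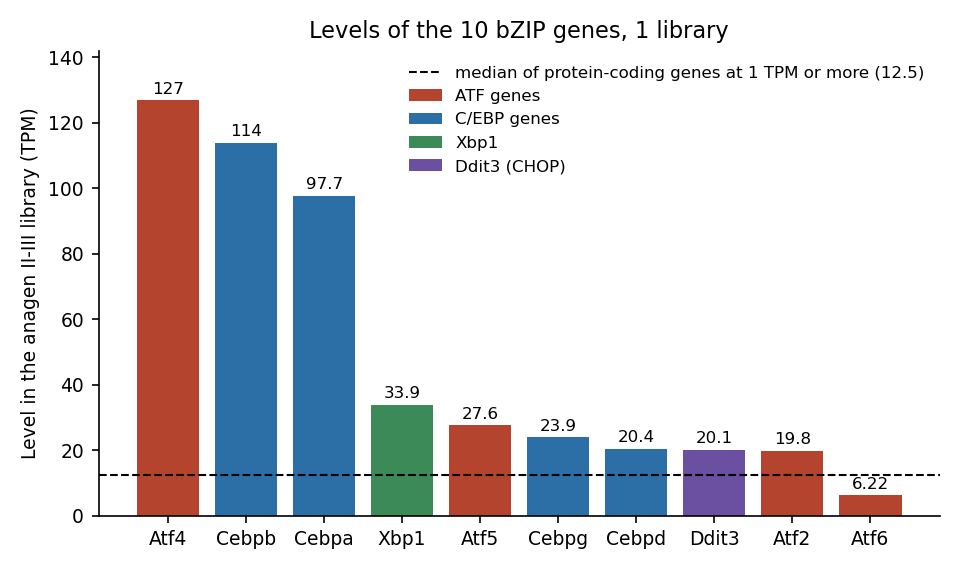
Level of each of the 10 genes in the anagen II-III library (bars, TPM, linear axis from 0; 1 library, no error). Atf4, Cebpb and Cebpa lie between 97.7 and 127 TPM, 6 genes lie between 19.8 and 33.9 TPM, and Atf6, at 6.22 TPM, is the one bar under the dashed median of protein-coding genes at 1 TPM or more.

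Set against other genes, the members were mostly well expressed. Their median was 25.8 TPM, against 12.5 TPM for the 11662 nuclear protein-coding genes at 1 TPM or more, called the coding median here. Over all 20853 such genes, those under 1 TPM included, the median was 2.41 TPM, and all 10 members exceeded it. Of the 10 members, 9 reached 10 TPM, while 31.8% of all protein-coding genes did. The members were listed with earlier results of this library known, so the count is a description. Atf4 was the 533rd highest of the protein-coding genes and lay above 95.4% of those at 1 TPM or more. Cebpb lay above 94.7% and Cebpa above 93.6% of them. The middle genes ranged from Atf2, above 64.2%, to Xbp1, above 77.9%, and Atf6 lay above 29.2%. The place of Atf6 turns with the filter, since it lay above 60.4% of all protein-coding genes and above 6.62% of those at 5 TPM or more.

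**Figure D2:**
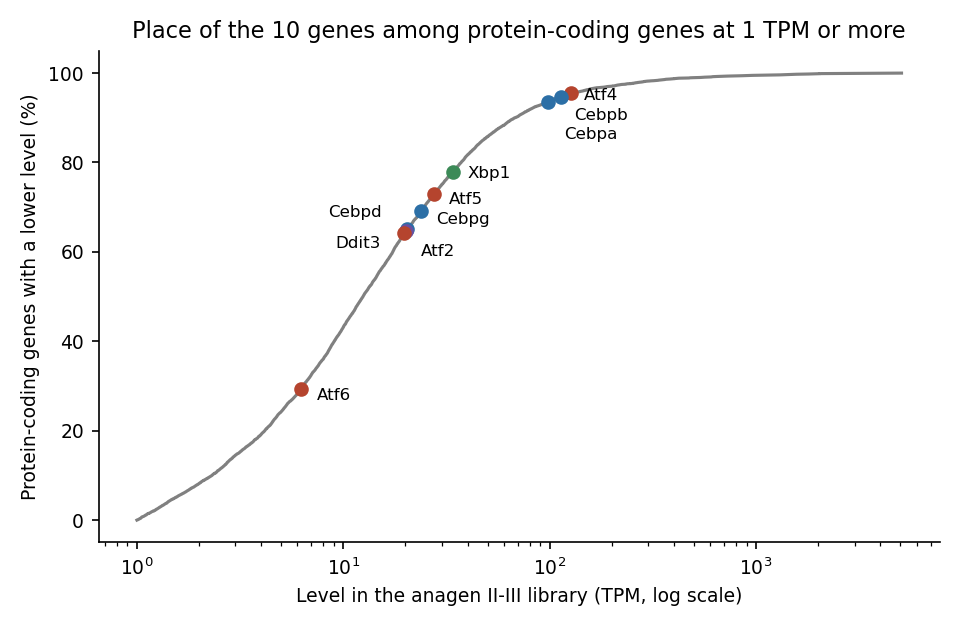
Share of protein-coding genes at 1 TPM or more with a lower level (vertical axis, %) against level (horizontal axis, TPM, log scale), with the 10 genes marked on the curve. Atf4, Cebpb and Cebpa sit above 93.6% or more of the genes, and Atf6 above 29.2%.

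Among the stress-regulated ATF factors, Atf4 exceeded each other ATF gene of the set. Atf4 (ENSMUSG00000042406, build GRCm38, chromosome 15, 80255184 to 80257545) was 4.59-fold above Atf5, 6.41-fold above Atf2 and 20.4-fold above Atf6. Atf5 (ENSMUSG00000038539, chromosome 7, 44812256 to 44816658) encodes the closest relative of ATF4, whose translation is also favoured under stress and which is linked to the mitochondrial stress response. Its own level of 27.6 TPM was 2.22-fold above the coding median. Atf2 (ENSMUSG00000027104, chromosome 2, 73816509 to 73892677) encodes a factor switched on through phosphorylation by the p38 and JNK kinases, often as a dimer with JUN. Jun stood at 233 TPM, 11.8-fold above Atf2, and Atf7, the close relative of Atf2, stood at 32.8 TPM. Atf3, a stress-induced repressor outside the set, was at 74.1 TPM, so Atf4 was 1.71-fold above it.

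The C/EBP genes were unequal. Their summed level was 256 TPM, 2.02-fold the level of Atf4. Cebpb (ENSMUSG00000056501, chromosome 2, 167688915 to 167690432) gave 44.5% of that sum and Cebpa (ENSMUSG00000034957, chromosome 7, 35119293 to 35121928) 38.2%. Cebpg (ENSMUSG00000056216, chromosome 7, 35046422 to 35056566), which encodes the short C/EBP that lacks an activation domain and pairs with ATF4, gave 9.33%. Cebpd (ENSMUSG00000071637, chromosome 16, 15887286 to 15889545), an acute-phase C/EBP gene, gave 7.99%. Cebpb was thus 4.77-fold above Cebpg and 5.57-fold above Cebpd. Cebpa and Cebpg lie 62726 bases apart on chromosome 7, and Cebpa was the higher of this pair of neighbours. Cebpe, the granulocyte member of the family, was at 0.0494 TPM. The Cebpb value joins the long activating and short inhibitory protein forms that arise from 1 mRNA.

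Ddit3 (ENSMUSG00000025408, chromosome 10, 127290793 to 127296291) encodes CHOP, a bZIP protein that pairs with C/EBP factors and keeps them from their usual sites, and which promotes cell death under lasting ER stress. It stood at 20.1 TPM. The C/EBP sum was 12.7-fold above it, Cebpb alone 5.66-fold, and Cebpg 1.19-fold.

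The ER stress factors stood apart from each other. Xbp1 (ENSMUSG00000020484, chromosome 11, 5520641 to 5525993) stood at 33.9 TPM, 5.45-fold above Atf6 (ENSMUSG00000026663, chromosome 1, 170704457 to 170868585). The value for Xbp1 does not separate spliced from unspliced mRNA. Atf6b, the paralogue of Atf6, was at 47.0 TPM, 7.56-fold above Atf6.

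Some gene models overlap others on RefSeq, and the sources used here do not say whether counting used strand. Ddit3 overlaps Mbd6 by 77 bases at one end and Mars1 by 71 bases at the other, and these genes stood at 47.2 and 24.9 TPM. Cebpd overlaps Spidr, at 5.81 TPM, by 322 bases. Atf5 overlaps Il4i1b, at 1.25 TPM, by 289 bases and Nup62, for which no value was matched by symbol, by 571 bases. For Atf2 and Atf6, the overlapping genes with a value were at or under 0.706 TPM. Cebpg overlaps Gm45095, also without a matched value, by 1084 bases. Atf4, Cebpa, Cebpb and Xbp1 overlap no other gene there. How far shared ends enter the values was not tested.

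Across the bZIP genes listed here, 10 members and 43 others, the members supplied 27.1% of the summed 1810 TPM. Atf4 ranked 3rd of the 53 genes, Cebpb 5th and Cebpa 7th. The AP-1 genes Fos at 237 TPM and Jun at 233 TPM ranked above Atf4, and Junb at 124 TPM and Jund at 100.03 TPM stood between the 3 members. Fos, Jun and Atf3 are early response genes that cell isolation can raise. The part of isolation in the levels of the members, or of any other gene named here, was not tested. The median of the members was 25.8 TPM, against 11.8 TPM over the 43 others. Of the 43 others, 36 reached 1 TPM, as did 11662 of all 20853 protein-coding genes. The lowest of the others were Cebpe and Nrl, a photoreceptor gene listed at 0.

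**Figure D3:**
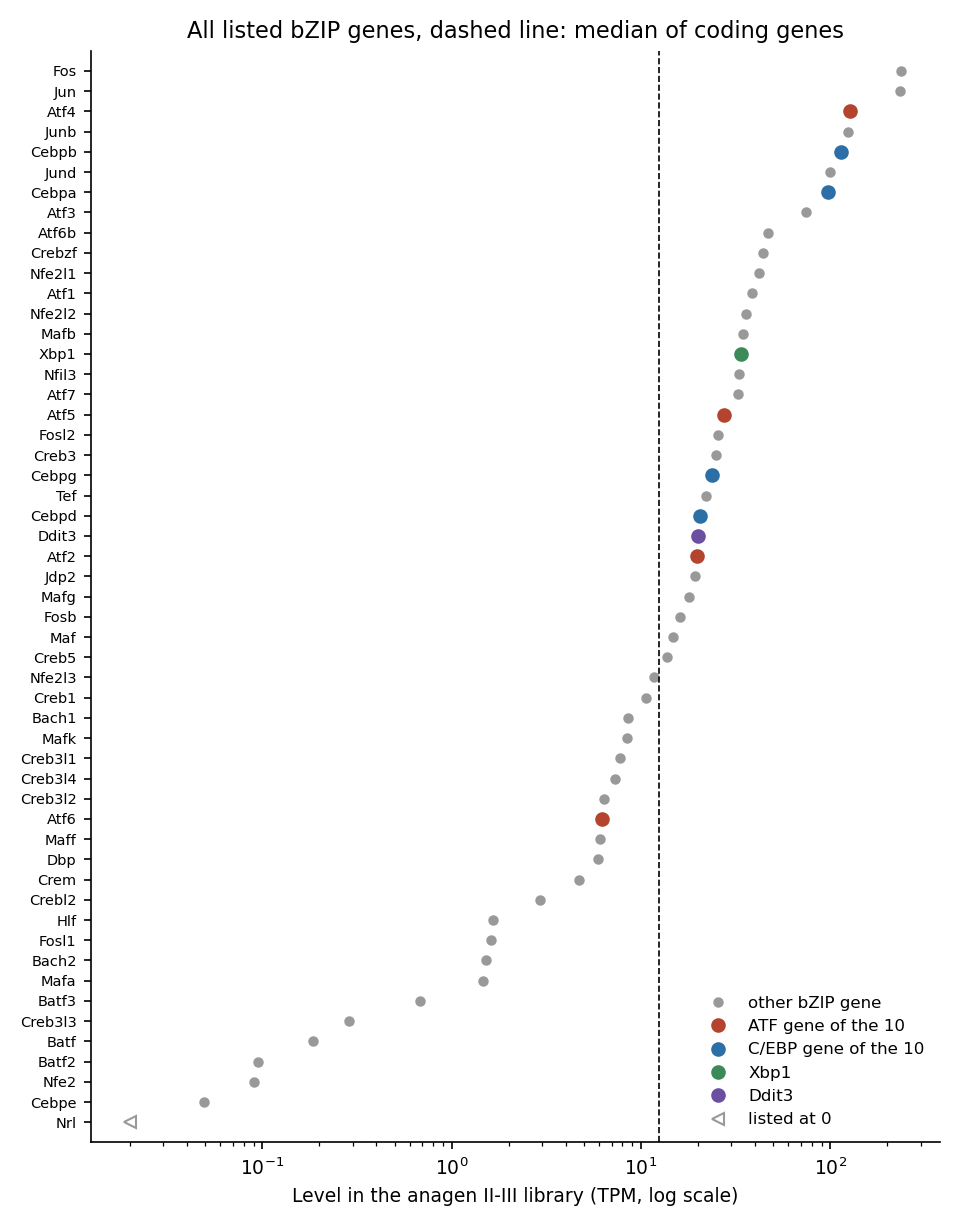
Level of each of 53 bZIP genes in the anagen II-III library (TPM, log scale, 1 library), ordered from high to low, with the 10 members in colour, the others in grey and a triangle for the gene listed at 0. Fos and Jun lead, Atf4, Cebpb and Cebpa fall among the 7 highest, and Atf6 ranks 38th.

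The 16 listed genes of the eIF2 machinery, which acts upstream of ATF4, were all below Atf4. So were 95.4% of the protein-coding genes at 1 TPM or more. The median of the 16 was 17.5 TPM. Each reached 1 TPM, as did 11662 of all 20853 protein-coding genes. Of the 16, 10 exceeded the coding median, which divides those 11662 genes evenly. Top levels were those of the eIF2 subunit genes Eif2s3x at 55.6 TPM and Eif2s2 at 43.4 TPM, the exchange factor subunit Eif2b2 at 37.7 TPM and Ppp1r15a at 34.0 TPM. Ppp1r15a encodes GADD34, the induced phosphatase subunit that reverses eIF2 phosphorylation, and stood 2.48-fold above its constitutive counterpart Ppp1r15b at 13.7 TPM. The lowest were the kinase genes Eif2ak2 (PKR) at 4.65 TPM and Eif2ak3 (PERK) at 3.87 TPM. The highest of the eIF2 kinase genes, Eif2ak1, stood at 11.4 TPM. Atf4 was 32.7-fold above Eif2ak3 and 20.3-fold above Eif2ak4, which encodes GCN2, the kinase that responds to uncharged tRNA, at 6.26 TPM.

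Sensors and activators of the ER arms had a median of 4.89 TPM over 6 genes. Rtcb, the ligase that joins the cut Xbp1 mRNA, stood at 41.5 TPM and Mbtps1, the first protease that cleaves ATF6, at 38.6 TPM. Mbtps2, the second, was at 5.62 TPM and Ern1, which encodes IRE1-alpha, at 4.16 TPM, near Eif2ak3. Ern2, the form of gut epithelium, was at 0.0120 TPM. Of the 11 stress kinase genes upstream of ATF2, 10 reached 1 TPM, as did 11662 of all 20853 protein-coding genes. The median of the 11 was 14.4 TPM. At the top stood the p38-delta gene Mapk13 at 39.2 TPM, Map2k3 at 31.5 TPM, Map2k7 at 23.5 TPM and the p38-alpha gene Mapk14 at 21.9 TPM, and the lowest were Mapk12 at 3.85 TPM and the neuronal JNK gene Mapk10 at 0.0407 TPM.

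Genes that act on the stability of ATF4 or C/EBP proteins ranged from 0.394 to 50.3 TPM. The highest of the 9 was Rfwd2, listed in the table as Cop1, at 50.3 TPM. It encodes the ubiquitin ligase that the Tribbles proteins TRIB1 and TRIB2 bring to C/EBP-alpha. The Tribbles genes Trib2, Trib1 and Trib3 stood at 9.25, 7.44 and 0.394 TPM. Of the F-box genes, Fbxw11 was at 28.1 TPM, Fbxw7 at 6.76 TPM and Btrc, which encodes an F-box protein that binds phosphorylated ATF4, at 2.62 TPM. The prolyl hydroxylase genes Egln1 and Egln3 stood at 27.1 and 23.2 TPM.

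Known target genes of the factors differed widely within each list. These are textbook lists, and their levels in 1 control library do not show that a factor acts on them. The lists are not separate, as Ppp1r15a, Chac1 and Trib3 are in both that of ATF4 and that of CHOP. Of 30 ATF4 targets, 26 reached 1 TPM and 17 exceeded the coding median, and the median of the 30 was 16.1 TPM. Of all 20853 protein-coding genes, 11662 reached 1 TPM. The coding median divides those 11662 evenly, so the count of 17 is to be set against the 26 targets at 1 TPM or more. Of the 30, 24 exceeded the 2.41 TPM median that divides all 20853 genes evenly. Slc3a2, a subunit of amino acid transporters, led the list at 279 TPM, ahead of the mTORC1 inhibitor gene Ddit4 at 109 TPM, the arginine and lysine transporter gene Slc7a1 at 80.1 TPM and Atf3 at 74.1 TPM. Aldh1l2, of mitochondrial folate metabolism, and Trib3 were lowest at 0.419 and 0.394 TPM. CHOP targets had a median of 4.40 TPM over 7 genes. Of these, 1, Ppp1r15a, exceeded the coding median, and 5 exceeded the 2.41 TPM median of all protein-coding genes. The ER oxidase gene Ero1l, listed as Ero1a, was at 6.44 TPM, the pro-apoptotic genes Bcl2l11 and Bbc3 at 5.95 and 3.18 TPM, and the death receptor gene Tnfrsf10b at 4.40 TPM. Chac1, which breaks down glutathione, was at 0.610 TPM and Trib3, a pseudokinase gene, at 0.394 TPM, both far below the 20.1 TPM of Ddit3.

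By list median, targets of the ER factors were higher than those of CHOP, though single genes of the lists overlapped in level. All 12 ATF6 targets exceeded 10 TPM, a level that 31.8% of all protein-coding genes reached. The median of the 12 was 41.9 TPM. The chaperone genes Hspa5, Calr and Hsp90b1 stood at 316, 286 and 265 TPM and the secreted Manf at 122 TPM, while Sel1l and Herpud1, of ER-associated degradation, were lowest at 12.3 and 11.2 TPM. Many of these genes are also abundant in unstressed cells. The 10 XBP1 targets had a median of 15.8 TPM. The translocon genes Sec61b and Sec61a1 were at 134 and 84.3 TPM, the translocon-associated Ssr3 and Ssr1 at 70.4 and 17.4 TPM, the co-chaperones Dnajb11, Dnajc3 and Dnajb9 at 50.7, 14.3 and 9.37 TPM, the degradation genes Edem1 and Edem2 at 11.7 and 11.2 TPM, and the COPII gene Sec24d at 7.56 TPM.

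Mitochondrial chaperone and protease genes linked to ATF5 all exceeded the coding median, 10 of 10, with a median of 24.9 TPM. That coding median divides the 11662 protein-coding genes at 1 TPM or more evenly. The chaperone genes Hspe1, Hspd1 and Hspa9 stood at 216, 71.2 and 67.0 TPM. The other 7 ranged from 15.6 to 27.3 TPM, with the protease genes Yme1l1 at 27.3 TPM, Clpp at 25.7 TPM, Lonp1 at 24.2 TPM, Htra2 at 19.8 TPM and Afg3l2 at 15.6 TPM, the co-chaperone gene Dnaja3 at 20.2 TPM and the unfoldase gene Clpx at 17.8 TPM. Hspe1, Hspd1 and Hspa9 were above the 27.6 TPM of Atf5 and the other 7 below it. Yme1l1 lay so near Atf5 that, without replicates, the order of this pair has no meaning.

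**Figure D4:**
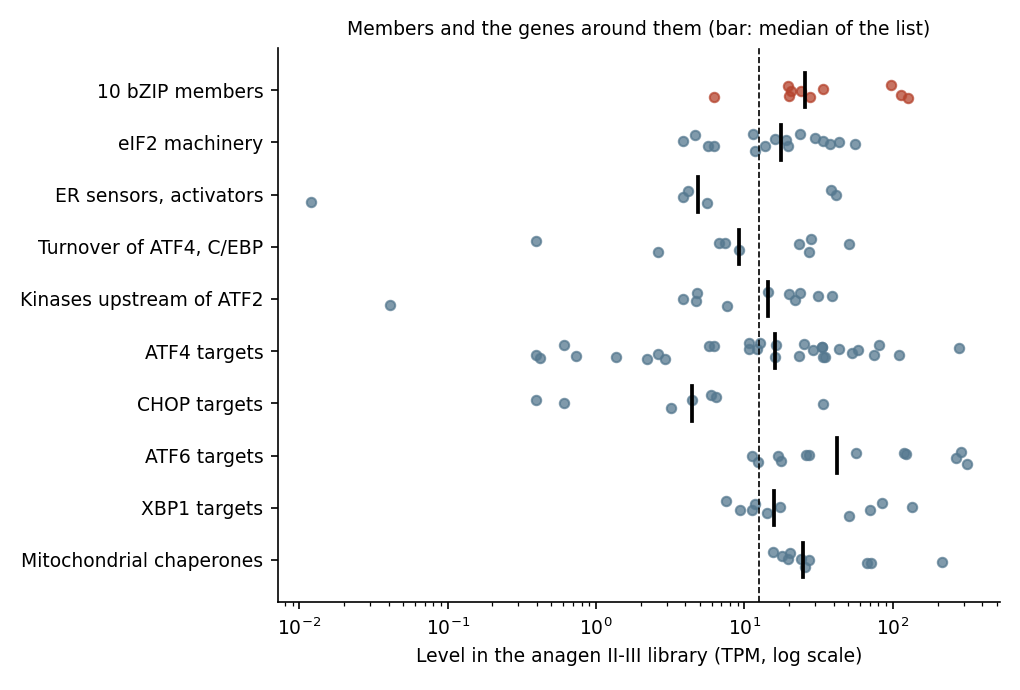
Levels in the anagen II-III library (TPM, log scale) of the 10 members, top row, and of 9 lists of genes around them, with 1 point a gene, a bar at each list's median and a dashed line at the median of protein-coding genes at 1 TPM or more. ATF6 targets have the highest median at 41.9 TPM and CHOP targets the lowest at 4.40 TPM.

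All 8 bulge markers listed were above the coding median, from Nfatc1 at 16.1 TPM to Krt15 at 3364 TPM. Cd34, one of the 8, was also used to sort the cells, and the 8 markers do not check the stage of the sample. RNA of other skin cells was also present. Of the 4 fibroblast markers, Col3a1 stood at 287 TPM, Col1a1 at 278 TPM, Dcn at 63.9 TPM and Pdgfra at 1.44 TPM. Levels ranged from 0.00794 to 138 TPM for 4 suprabasal keratinocyte markers, from 7.21 to 12.6 TPM for 4 melanocyte markers, from 0.264 to 13.2 TPM for 4 leukocyte markers and from 1.66 to 4.65 TPM for 3 endothelial markers. Cebpa, Cebpb and Cebpd are also expressed in fibroblasts and differentiating keratinocytes. Cebpa marks fat and sebaceous cells too, and the 4 sebocyte and adipocyte markers were at or under 0.281 TPM. The part of any of these cells in the values was not tested.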

How the data were processed

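The deposited table gives TPM per gene, computed by the authors. The tools named in the submitters' processing notes are RSEM 1.2.30 and Bowtie2 2.2.9, with build mm10, and the annotation is not given in the sources used here. Per the labels' protocols, libraries came from an Illumina mRNA kit and were read as paired ends. The table has 12 value columns. Values of the anagen sample came from the column named 1, as no other title is numbered 1, and nothing else links them. The other 11 columns were not used, and the planned ratio of anagen over telogen was not made, since no column name fits the telogen sample alone. Each gene ID was used once.

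Gene types, positions and promoters came from RefSeq tables of GRCm38.p6, matched by symbol for 32824 IDs. A gene's place is the share of nuclear protein-coding genes at 1 TPM or more with a lower level. Named genes are all members, all genes of pathway lists of at most 10, and the 4 highest and 2 lowest of longer ones. Other genes were named after their values were seen. The members and lists were chosen with earlier results of these data known. TPM keeps no depth, so no interval could be given. The code for the place gave back known quantiles of simulated levels. The code for the motif search found each motif planted in a run of A. These checks cover the code only, not how often letters match in real windows. Calculations used Python 3.11.15 and pandas 2.3.3.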

Additional observations from a re-analysis of the deposited data

How the results depend on the processing

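Ratios between genes, and the order of the 10 genes, do not depend on the scaling of the library, since a scaling multiplies every level by 1 factor. The levels do. The median of the members was 25.8 TPM as deposited, 31.7 TPM after rescaling without mitochondrial genes (a factor of 1.23), 44.6 TPM without these and the 50 highest genes, 53.9 TPM over protein-coding genes alone (a factor of 2.09) and 25.6 TPM with every row of the table counted. The ratio of that median to the median of protein-coding genes was 2.07, and under the same scalings 2.13, 2.25, 2.31 and 2.07. It was 1.39 against genes at 5 TPM or more and 10.7 against all protein-coding genes, so it depends on the filter on low values. The place of Atf6 ranged from above 6.62% to above 60.4% of genes, and that of Atf4 from 94.0% to 97.4%. The count of members at 10 TPM or more was 9 or 10 under the scalings, and thresholds of 5 and 20 TPM gave 10 and 8. No paired analysis was possible because each stage has 1 sample. No depth is known, so no lower limit could be set on a level.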
